A study of Mus musculus with 6 samples.

Results

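The 36 genes described here encode the enzymes that build cholesterol and fatty acids and the proteins that control their transcription. They were picked by symbol from the 41795 features of a gene count table, and all 36 were found there. They divide into 18 genes of the sterol branch, 12 of the fatty acid branch and 6 regulators. The table compares mouse mammary tumour cells in 2 states, labelled quiescent cancer stem cells (CSCs) and activated CSCs, with 3 libraries of total RNA per state. All libraries are labelled FVB/N-Tg(MMTV-PyVT)634Mul/J, a mouse line in which a mammary tumour virus promoter drives the polyoma virus middle T antigen, so both states carry the transgene. The labels give no age, no sorting or activation method, and nothing on whether replicate libraries came from different animals or cultures. The p-values therefore measure the spread between these libraries, which may be technical. CSCs have the capacity for self-renewal and for seeding new tumours, and the quiescent ones rest outside the cell cycle.

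Cholesterol is made from acetyl-CoA through mevalonate, farnesyl diphosphate, squalene and lanosterol. Fatty acids are made from the same acetyl-CoA by carboxylation to malonyl-CoA and repeated condensation on fatty acid synthase, after which elongases lengthen the chain and desaturases put in double bonds. Both branches are under the control of sterol regulatory element binding proteins (SREBPs), membrane-bound transcription factors that the escort protein SCAP carries from the endoplasmic reticulum to the Golgi, where proteases release them. INSIG proteins hold SCAP back when sterols are plentiful. SREBP-2, from Srebf2, is best known for cholesterol genes and SREBP-1, from Srebf1, for fatty acid genes, and the mammary gland uses the fatty acid branch heavily when it makes milk fat.

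Library totals ran from 17785331 to 20510377 counts. Levels are CPM, a gene's counts scaled to a common library total, given as mean ± SD over 3 libraries. Differences are log2 fold changes, positive where activated CSCs were higher, with their standard error (SE). Unless another setting is named, adjusted p comes from edgeR's quasi-likelihood test on all 6 libraries with Benjamini-Hochberg adjustment over the 15223 genes tested, with a threshold of 0.05. CPM measure a gene against all other RNA in its library, and in bulk RNA a change in the number of cells of a type and a change in RNA per cell cannot be told apart. The epithelial markers Epcam, Krt8 and Krt18 were at 1596, 2435 and 1622 CPM in quiescent and 1173, 2319 and 1504 CPM in activated CSCs, so both states had strong epithelial expression. The activated library 1 stood somewhat apart from its 2 partners, with a chi-square per degree of freedom of 5.57 and 6.03 against 1.99 to 3.35 for all other replicate pairs. Leaving it out left the numbers of called members unchanged, with 13 sterol, 8 fatty acid and 4 regulator genes higher and 2 of each lower.

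All 36 members passed the filter on low counts, on 25 to 47417 counts per library. Most were higher in activated CSCs: 25 of 36 rose, 6 fell and 5 did not pass the threshold. The share that passed in either direction was 86.1%, where over all genes tested it was 47.5%. The share that rose was 69.4% against 24.1% of all genes, and the share that fell was 16.7% against 23.4%. The median log2 fold change of the members was 0.33, beside 0.00 for all genes tested. The median absolute log2 fold change was 0.39 for the members and 0.24 for all genes tested. Members and all genes were not matched for count level, and its part in these shares was not tested. In 32 of 36 members the 3 libraries of one state lay wholly above those of the other, which held for 55.9% of all genes. The changes were mostly small. A log2 change of at least 1 was reached by 3 members, all desaturases and all higher. Past the threshold, a rise of that size was found for 5.94% and a fall of that size for 3.39% of all genes, and for 0 members in the downward direction.

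**Figure D1:**
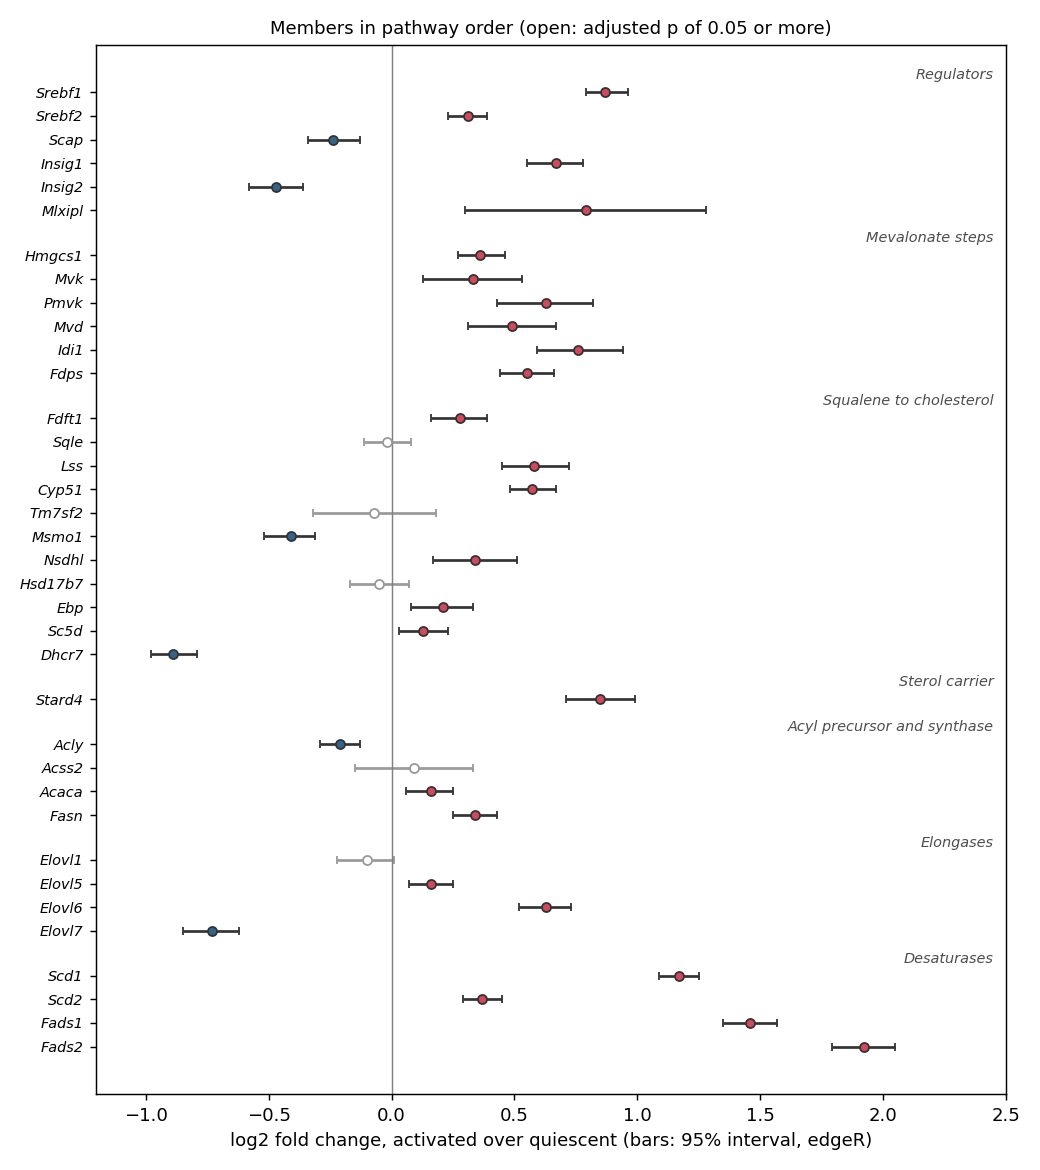
Log2 fold change of activated over quiescent for each of the 36 members in pathway order (points), with its 95% interval (bars). Filled red points rose, filled blue points fell and open points did not pass an adjusted p of 0.05. The mevalonate genes lie at 0.33 to 0.76, the genes from squalene to cholesterol scatter from -0.89 to 0.58, and Scd1, Fads1 and Fads2 lie farthest to the right at 1.17, 1.46 and 1.92.

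Among the regulators 4 rose and 2 fell, and the members of each related pair did not move alike. Srebf1, which encodes SREBP-1, was at 149, 140 and 149 CPM in the quiescent and 256, 272 and 273 CPM in the activated libraries. Every activated library was thus above every quiescent one, and the gene rose by 0.87 (SE 0.04, adjusted p = 1.7e-11), or 1.83-fold. The counts do not separate its SREBP-1a and SREBP-1c transcripts, and the gene model overlaps Rai1 on the other strand by 114 bases. Srebf2 was at 211, 206 and 204 CPM and at 250, 255 and 265 CPM. It also rose in all activated libraries, but by 0.31 (SE 0.04, adjusted p = 2.6e-06). On length-scaled levels Srebf1 was below Srebf2 in the quiescent libraries, with ratios of 0.805, 0.78 and 0.835, and above it in the activated libraries, with ratios of 1.17, 1.22 and 1.18.

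The genes for the retention and escort proteins split. Insig1, itself a well-known SREBP target, was at 41.6, 37.9 and 39 CPM in quiescent and 60.2, 64.4 and 63.5 CPM in activated CSCs. It rose by 0.67 (SE 0.06, adjusted p = 3e-08). Insig2, whose product also binds SCAP but whose transcription is not driven by SREBPs in the same way, went the other way, from 81.4, 76.5 and 80.9 CPM to 54.1, 59.1 and 59 CPM. It fell by 0.47 on the log2 scale (SE 0.05, adjusted p = 1.4e-06). The length-scaled ratio of Insig1 to Insig2 was 0.627 to 0.665 in the quiescent and 1.4 to 1.45 in the activated libraries, so the order of the 2 genes was reversed between the states. Scap fell from 155 ± 3.76 to 132 ± 9.34 CPM (log2 change -0.24, SE 0.05, adjusted p = 6.4e-04). Mlxipl encodes ChREBP, the carbohydrate-responsive factor that drives lipogenic genes. It rested on 25 to 64 counts per library and rose from 1.86 ± 0.644 to 3.22 ± 0.313 CPM (adjusted p = 0.01), a call that ended without quiescent replicate 1 (adjusted p = 0.059) or without quiescent replicate 3 (adjusted p = 0.052).

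In the sterol branch 13 of 18 genes rose and 2 fell, 3 had no call, and the median log2 fold change was 0.33. The steps that make farnesyl diphosphate moved as a block: all 6 rose, with no overlap between the states. Hmgcs1, which makes HMG-CoA, was at 85.5, 88.8 and 83 CPM in quiescent and 108, 112 and 110 CPM in activated libraries, and rose by 0.36 (SE 0.05, adjusted p = 4.5e-06). The largest change of this group was that of Idi1, the isopentenyl diphosphate isomerase, from 21.8, 21.6 and 18.7 CPM to 38.3, 32.3 and 34.5 CPM (log2 change 0.76, SE 0.08, adjusted p = 9.2e-07). Fdps, the farnesyl diphosphate synthase, rose from 64.3 ± 3.1 to 93.9 ± 3.31 CPM, or 1.46-fold. The kinase and decarboxylase genes between them were expressed at lower levels. Pmvk was at 12.4 ± 1.04 and 19.2 ± 0.938 CPM (1.55-fold), Mvd at 14.6 ± 0.815 and 20.5 ± 0.982 CPM (1.4-fold) and Mvk at 11.9 ± 0.979 and 15 ± 0.6 CPM (1.26-fold). Of the 31-base words in the longest Idi1 transcript 22.2% are also found in another gene, and of those of Fdps 13.6%, so these counts may hold or lack reads of related copies.

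From squalene to cholesterol the genes went both ways, with 6 higher, 2 lower and 3 not past the threshold of 11 and a median of 0.13. Those that rose were spread along the whole stretch. Lss, the synthase that closes the lanosterol rings, rose from 27.3 ± 1.42 to 40.9 ± 0.601 CPM (log2 change 0.58, SE 0.06, adjusted p = 6.6e-07). Cyp51, the lanosterol demethylase, rose from 78.6 ± 1.67 to 117 ± 2.77 CPM (log2 change 0.57, SE 0.04). Nsdhl, a decarboxylating sterol dehydrogenase, was at 24.9, 24.7 and 27.2 CPM and at 36.5, 29.9 and 30.8 CPM, a 1.27-fold rise. Ebp, the sterol isomerase, rose 1.15-fold (adjusted p = 0.008). Sc5d, the lathosterol desaturase, was at 73.2 ± 1.45 and 80 ± 1.13 CPM with an adjusted p = 0.032. That call ended with DESeq2 (adjusted p = 0.073), without quiescent replicate 1 or 2 (adjusted p = 0.11 and 0.058) and without activated replicate 2 or 3 (adjusted p = 0.055 and 0.061). Fdft1, the squalene synthase, rose from 52.1 ± 2 to 63 ± 2.34 CPM (1.21-fold). Its gene model shares 774 bases with Ctsb on the other strand, and Ctsb had 159975 counts over the 6 libraries beside 6453 for Fdft1. Of the 31-base words of Fdft1 16.5% are also found in Gm6781.

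The 2 sterol genes that fell were abundant in quiescent CSCs, and on length-scaled levels Dhcr7 was the highest of the branch. The order of Msmo1 and Fdps behind it depends on the gene model, since the deposited length is 0.892 times that of the longest coding transcript in GENCODE M21 for Msmo1 and 1.06 times for Fdps. Dhcr7, a reductase of the last steps (NCBI gene 13360, GRCm38 chromosome 7, 143823167 to 143848410, plus strand), was at 223, 220 and 237 CPM in the quiescent and 114, 126 and 127 CPM in the activated libraries. It fell by 0.89 on the log2 scale (SE 0.05, adjusted p = 7.8e-11), and the lowest quiescent library was far above the highest activated one. Msmo1, the C4-methylsterol oxidase, fell from 95.5, 96.7 and 88.8 CPM to 70.5, 72.4 and 67.9 CPM (log2 change -0.41, SE 0.05, adjusted p = 3.3e-06). Dhcr7 made up 20.5% ± 0.761 of the length-scaled RNA of the 18 sterol genes in quiescent and 10.6% ± 0.62 in activated CSCs (SD, n = 3). Msmo1 went from 14.6% ± 0.705 to 10.4% ± 0.38 of it, and Fdps, at 12.5% ± 0.571 and 17.4% ± 0.534, had the largest share in activated CSCs. Within each library the length-scaled ratio of Dhcr7 to Cyp51 was 3.99, 3.79 and 4.22 in quiescent and 1.32, 1.52 and 1.52 in activated CSCs.

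For 3 sterol genes no difference passed the threshold. Sqle, the squalene epoxidase and a rate-limiting enzyme of the branch, was at 111, 112 and 103 CPM and at 109, 105 and 107 CPM. Its states overlapped, and the 95% interval of its fold ran from 0.924 to 1.05. Hsd17b7, a keto-sterol reductase, was at 50.6 ± 1.33 and 48.8 ± 2.94 CPM, with an interval from 0.887 to 1.05. Tm7sf2, a sterol C14 reductase, was at 10.4 ± 0.84 and 9.85 ± 1.31 CPM, with an interval from 0.8 to 1.13. Changes beyond these bounds lie outside the intervals, and smaller ones do not. Stard4, which carries cholesterol between membranes and was counted with the sterol branch, had the largest rise of its 18 genes, from 21.8, 20.6 and 20.6 CPM to 37.7, 37 and 38.8 CPM (log2 change 0.85, SE 0.07, adjusted p = 1.4e-08).

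**Figure D2:**
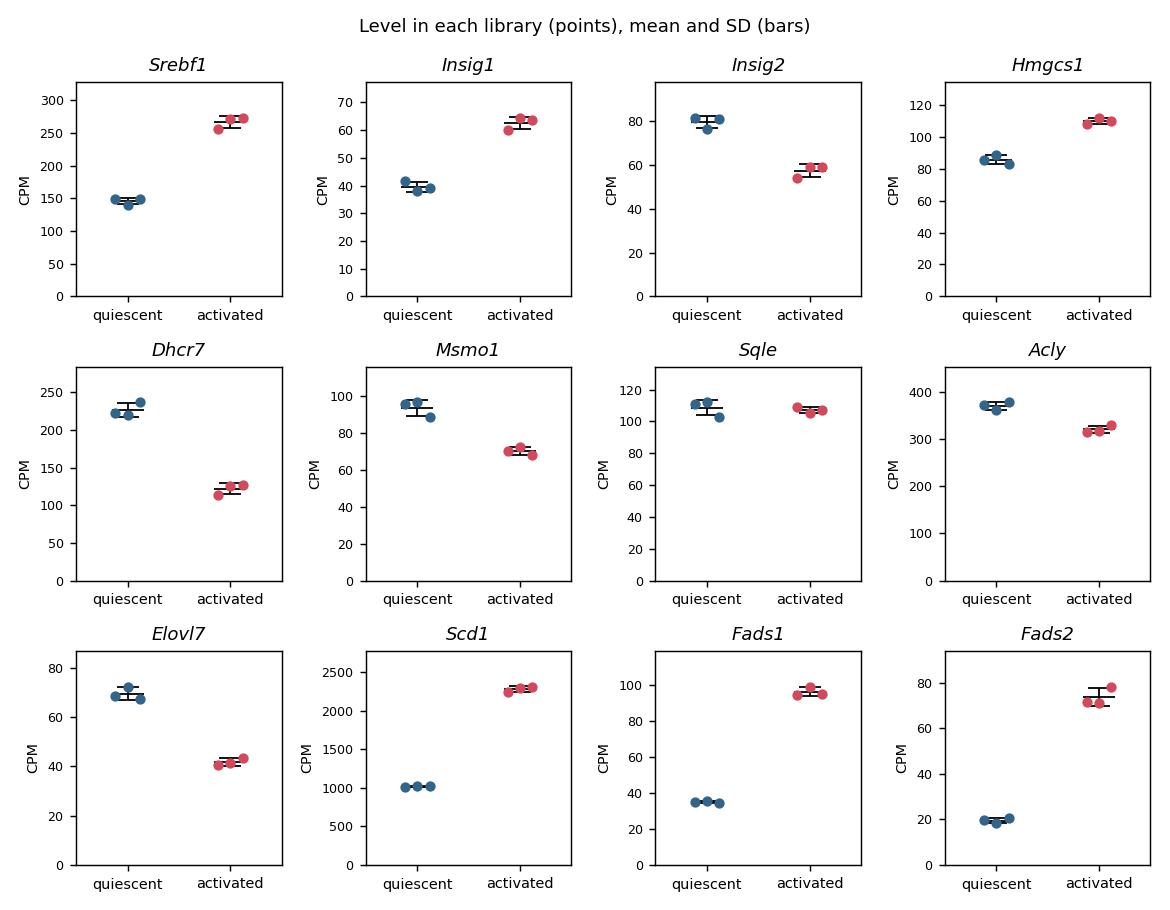
CPM in each of the 3 quiescent (blue) and 3 activated (red) libraries for 12 members, with the mean and SD as bars and every axis starting at 0. Insig1 and Insig2 moved in opposite directions, Dhcr7 and Msmo1 fell, the points of Sqle overlap, and Fads2 went from 18.2 to 20.5 CPM up to 71.2 to 78.3 CPM.

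Promoter windows from RefSeq (GRCm38.p6), 250 bases before to 50 after a transcription start, were held for 29 of the 36 members, in 39 windows. They were searched on both strands for TCACNCCAC, a form of the sterol regulatory element, and for CCAAT, the box bound by NF-Y, which acts with SREBPs. All 14 sterol genes with a window held CCAAT in at least 1 of them, as did 5 of 9 fatty acid genes and 5 of 6 regulators, beside 41.1% of 27025 genes. The form TCACNCCAC was found for 2 members, Hmgcs1 and Mlxipl, and in 1.44% of all genes. GGGCGG, the GC box, was found for 24 of 29 members and 38.2% of all genes. Base composition was not matched between the groups, and its part in these shares was not tested. The 150 bases before the start are shown for 2 sterol genes that rose, the 2 that fell, and a pair from the fatty acid branch, with the sterol element and CCAAT, on either strand, in capitals. For Dhcr7 the table gives 3 starts, and the one shown is the only one with CCAAT.
Hmgcs1 (chr13:119690201-119690350, plus strand): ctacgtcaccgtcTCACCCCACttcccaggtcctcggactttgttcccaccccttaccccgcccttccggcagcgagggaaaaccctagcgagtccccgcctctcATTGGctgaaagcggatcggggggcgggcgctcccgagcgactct
Idi1 (chr13:8885456-8885605, plus strand): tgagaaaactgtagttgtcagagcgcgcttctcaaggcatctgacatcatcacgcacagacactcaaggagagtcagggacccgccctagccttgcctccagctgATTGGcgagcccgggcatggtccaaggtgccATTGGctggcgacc
Msmo1 (chr8:64733579-64733728, minus strand): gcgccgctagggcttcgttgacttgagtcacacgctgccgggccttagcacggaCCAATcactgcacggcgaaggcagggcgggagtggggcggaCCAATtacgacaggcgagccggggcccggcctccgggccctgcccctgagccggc
Dhcr7 (chr7:143830064-143830213, plus strand): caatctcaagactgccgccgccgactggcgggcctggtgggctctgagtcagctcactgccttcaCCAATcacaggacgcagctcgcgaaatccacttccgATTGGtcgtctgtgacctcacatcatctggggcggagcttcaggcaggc
Fasn (chr11:120824548-120824697, minus strand): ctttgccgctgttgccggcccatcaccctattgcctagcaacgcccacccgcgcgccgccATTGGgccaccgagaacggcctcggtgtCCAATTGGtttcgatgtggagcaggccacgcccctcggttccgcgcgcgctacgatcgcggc
Fads2 (chr19:10101504-10101653, minus strand): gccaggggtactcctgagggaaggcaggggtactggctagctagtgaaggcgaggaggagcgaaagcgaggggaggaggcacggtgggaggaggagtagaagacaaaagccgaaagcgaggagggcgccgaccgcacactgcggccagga
The sterol genes shown, 2 that rose and 2 that fell, thus all have CCAAT near the start printed. Which start of Dhcr7 is used in these cells was not tested. In Fasn 2 matches on opposite strands overlap. The window of Fads2, the member with the largest change, has neither motif. No window was held for the other desaturase members, Fads1, Scd1 and Scd2. These are matches of letters and not measured binding.

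Of the 12 genes in the fatty acid branch 8 rose, 2 fell and 2 had no call. Their log2 fold changes ranged from -0.73 to 1.92 around a median of 0.25. The genes that supply and join acetyl units changed little. Acly, which makes cytosolic acetyl-CoA from citrate, fell from 372, 362 and 378 CPM to 315, 317 and 329 CPM (log2 change -0.21, SE 0.04, adjusted p = 1.9e-04). Acss2, which makes it from acetate, was at 11.2 ± 0.676 and 11.9 ± 1.72 CPM, with a 95% interval of the fold from 0.902 to 1.26. Acaca, the acetyl-CoA carboxylase, rose from 127 ± 7.66 to 142 ± 0.987 CPM (log2 change 0.16, SE 0.04, adjusted p = 0.0084), and its call ended without quiescent replicate 1 (adjusted p = 0.079). Of its 31-base words 56.8% are also found in Gm5182, a pseudogene with 313 to 425 counts per library beside 2108 to 2929 for Acaca. Fasn, the fatty acid synthase, was at 325, 341 and 356 CPM in quiescent and 412, 430 and 451 CPM in activated CSCs and rose by 0.34 (SE 0.04, adjusted p = 6.1e-06).

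The 4 elongase genes moved in different directions. Elovl6, which lengthens palmitate to stearate, rose from 57.5, 58.7 and 54.6 CPM to 88.3, 88.1 and 87.1 CPM (log2 change 0.63, SE 0.05, adjusted p = 1.5e-08). Elovl7, which acts on saturated long chains, fell from 68.5, 72.4 and 67.5 CPM to 40.5, 41.2 and 43.4 CPM (log2 change -0.73, SE 0.05, adjusted p = 5.7e-09). The states did not overlap for either gene. On the length-scaled scale Elovl7 was above Elovl6 in every quiescent library and below it in every activated one, the ratio of Elovl6 to Elovl7 being 0.75 to 0.778 and 1.86 to 2.02. Elovl5, which lengthens polyunsaturated chains, rose slightly from 106 ± 3.53 to 118 ± 2.89 CPM (log2 change 0.16, adjusted p = 0.0058). Elovl1, which makes very long saturated chains, was at 88.6 ± 2.99 and 82.5 ± 5.87 CPM (adjusted p = 0.14), with an interval of the fold from 0.859 to 1.01. It overlaps Cdc20, a mitotic gene, by 53 bases on the other strand, and the Cdc20 count was 125 to 152 per quiescent library and 1263 to 1618 per activated library. The part of Cdc20 reads in the Elovl1 count was not tested.

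All 4 desaturase genes among the members rose, and 3 of them had the largest rises of the 36 members. Of the other desaturase genes, looked up after these values were seen, those tested were not called higher. Fads6 fell from 18.9 ± 0.649 to 13.6 ± 0.729 CPM (log2 change -0.47, adjusted p = 2.2e-04). Fads3 (log2 change -0.10, adjusted p = 0.077) and Scd3 (log2 change 0.29, adjusted p = 0.27) had no call. Scd3 rested on 34 to 49 counts per library. The 95% interval of its fold ran from 0.905 to 1.64, which holds the 1.29-fold rise of Scd2. Scd4, on 2 to 15 counts per library, was not tested. The 4 member genes lie on chromosome 19 of GRCm38. Fads2 and Fads1 are at 10064164 to 10101503 and 10182888 to 10196874, with Fads3 on the other side of Fads2 at 10040855 to 10059671. Scd2 and Scd1 are at 44293676 to 44306864 and 44394450 to 44407709, with Scd4 between them at 44333326 to 44346743. Fads2 encodes the delta-6 desaturase that starts the making of long polyunsaturated fatty acids from linoleic and linolenic acid. It was at 19.7, 18.2 and 20.5 CPM in quiescent and 71.5, 71.2 and 78.3 CPM in activated CSCs, and rose by 1.92 (SE 0.06, adjusted p = 1.9e-13), or 3.78-fold. Fads1, the delta-5 desaturase of the same chain of reactions, was at 35, 35.3 and 34.6 CPM and at 94.3, 99.2 and 95.3 CPM, and rose by 1.46 (SE 0.05, adjusted p = 3.3e-13), or 2.75-fold. For both genes the libraries within a state lay close together and the states were far apart.

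Scd1 and Scd2 encode stearoyl-CoA desaturases, which turn palmitate and stearate into monounsaturated fatty acids. Scd1 was the most abundant member in every library, at 1005, 1023 and 1023 CPM in quiescent and 2243, 2292 and 2316 CPM in activated CSCs. It rose by 1.17 (SE 0.04, adjusted p = 1.7e-13), or 2.25-fold. Scd2 rose less, from 516, 519 and 500 CPM to 650, 656 and 678 CPM (log2 change 0.37, SE 0.04, adjusted p = 3.3e-07). The length-scaled ratio of Scd1 to Scd2 was 2.2 to 2.31 in the quiescent and 3.85 to 3.94 in the activated libraries. Of their 31-base words 8.26% for Scd1 and 6.86% for Scd2 are shared with other genes, chiefly with Scd3, which had 34 to 49 counts per library. Scd1 alone made up 38.5% ± 0.167 of the length-scaled RNA of the fatty acid branch in quiescent and 53% ± 0.224 in activated CSCs, while the share of Acly went from 15.3% ± 0.359 to 8.13% ± 0.0855. The deposited length of Fads2, 1508 bases, is below that of its longest coding transcript in GENCODE M21, 3150 bases, so its length-scaled level and these shares depend on the gene model used.

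**Figure D3:**
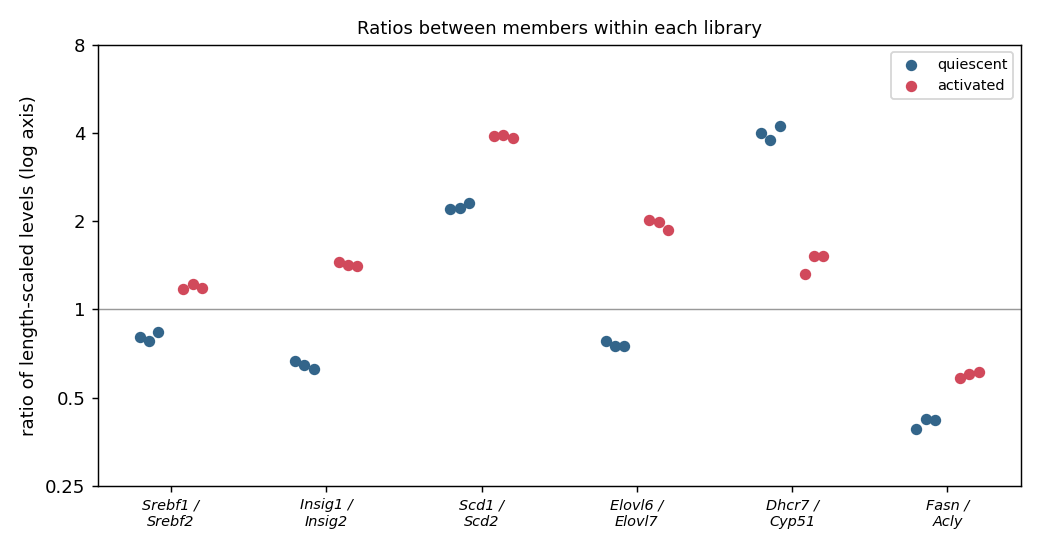
Ratio of the length-scaled levels of 2 members within each library (points, log axis), quiescent in blue and activated in red. The ratios Srebf1 to Srebf2, Insig1 to Insig2 and Elovl6 to Elovl7 cross 1 between the states, that of Dhcr7 to Cyp51 goes from 3.79 to 4.22 down to 1.32 to 1.52, and the states do not overlap in any of the 6 ratios shown.

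Set side by side, the branches had like shares of genes that rose but unlike changes in summed level. The share that rose was 72.2% of the sterol and 66.7% of the fatty acid genes, and the median log2 fold changes were 0.33 and 0.25. The summed level of the 18 sterol genes was 1012, 1007 and 1012 CPM in quiescent and 1059, 1058 and 1068 CPM in activated libraries. That of the 12 fatty acid genes was 2721, 2769 and 2770 CPM and then 4262, 4356 and 4434 CPM. Within the sterol branch the 6 mevalonate genes summed to 210 CPM in each quiescent library and to 292 to 295 CPM in the activated ones, while the 11 genes from squalene to cholesterol went from 776 to 782 CPM down to 727 to 734 CPM. Without Dhcr7 and Msmo1, a grouping chosen after their values were seen, the other 9 of these went from 456 to 462 CPM up to 531 to 542 CPM. Within the fatty acid branch the 4 desaturases went from 1575 to 1596 CPM up to 3060 to 3167 CPM. The other 8 genes together, also grouped after the values were seen, were at 1147 to 1192 CPM and 1202 to 1267 CPM. These sums are descriptions, weighted towards the abundant genes, and no test was made over the branches.

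**Figure D4:**
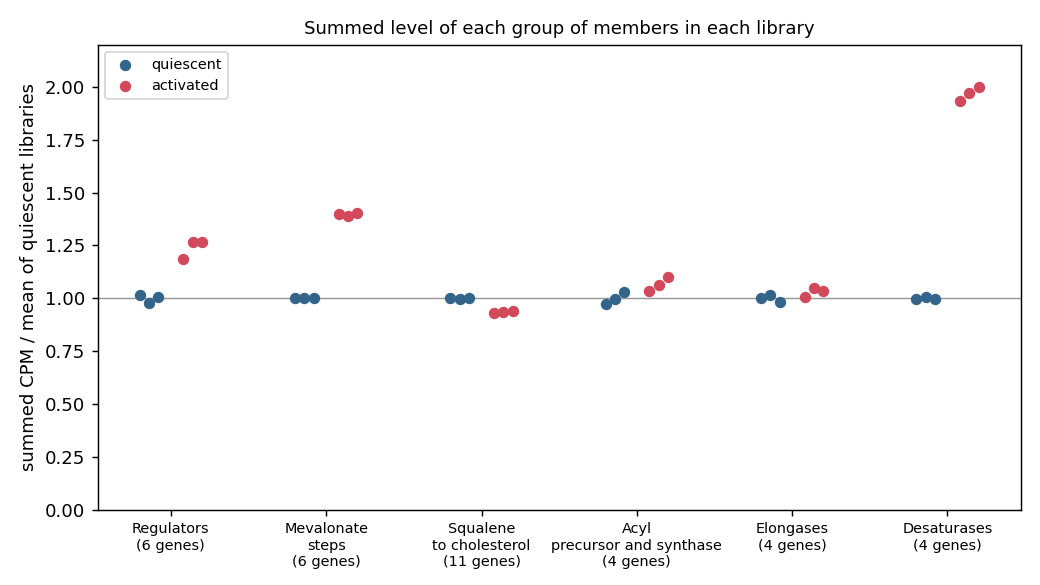
Summed CPM of each group of members in each library, divided by the mean of the quiescent libraries, with quiescent in blue and activated in red; Stard4 is not shown. The desaturases stand highest, with sums of 3060 to 3167 CPM in the activated libraries, the mevalonate genes are next with 292 to 295 CPM, and the genes from squalene to cholesterol lie just below the line.

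Other genes around the same pathways, from 6 lists with 122 genes in all, did not share a direction. Their shares are to be read beside the 24.1% of all genes tested that rose and the 23.4% that fell. Of 6 tested further genes of sterol synthesis 3 rose and 2 fell. Acat2, which joins acetyl-CoA units for the mevalonate branch, rose from 25.3 ± 0.92 to 38.9 ± 4.16 CPM (log2 change 0.62, adjusted p = 4.5e-06). Lbr, which has the same sterol C14 reductase activity as Tm7sf2, rose from 33.9 ± 1.8 to 49.1 ± 3.95 CPM (log2 change 0.53, adjusted p = 4.3e-06). Ggps1, which makes geranylgeranyl diphosphate from the product of Fdps, fell from 49.1 ± 1.85 to 42.3 ± 3.23 CPM (adjusted p = 0.0085), a call that ended without quiescent replicate 2 (adjusted p = 0.051). Without quiescent replicate 2, 0 genes of this list fell, and 1 fell without activated replicate 2 or 3.

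Of 16 further genes that control SREBPs or act with them 3 rose (18.8%) and 7 fell (43.8%). Nfyc, a subunit of NF-Y, rose from 31.2 ± 1.99 to 46.6 ± 2.43 CPM (log2 change 0.58, adjusted p = 1.1e-06). Thrsp and Mid1ip1, related genes whose products promote fatty acid synthesis, went in opposite directions. Thrsp rose from 4.56, 3.84 and 3.36 CPM to 13, 9.36 and 11.5 CPM (log2 change 1.52, SE 0.15, adjusted p = 2.7e-07), and Mid1ip1 fell from 45.6, 40.6 and 42.8 CPM to 21.6, 25.2 and 24.5 CPM (log2 change -0.86, SE 0.07, adjusted p = 3.9e-08).

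Of 21 tested genes of sterol uptake, storage and efflux 6 rose (28.6%) and 5 fell (23.8%), shares near those of all genes. Lipa, the lysosomal acid lipase that frees cholesterol from its esters, rose from 156 ± 1.97 to 401 ± 11.5 CPM (log2 change 1.36, SE 0.04, adjusted p = 1.9e-14). Mylip, a ligase that degrades the LDL receptor, rose 1.77-fold. Npc1, which exports cholesterol from lysosomes, fell from 139 ± 0.228 to 111 ± 8.16 CPM, and Soat2, a cholesterol-esterifying enzyme, fell from 2.21 ± 0.0927 to 0.47 ± 0.152 CPM on 6 to 42 counts per library. Soat2 passed the filter on low counts only through the quiescent libraries, where it was high. Of 24 tested further genes of fatty acid synthesis and activation 8 rose (33.3%) and 6 fell (25%), beside 24.1% and 23.4% of all genes. Acss1, the mitochondrial acetyl-CoA synthetase, rose from 9.25 ± 0.865 to 33.9 ± 1.59 CPM (log2 change 1.87, SE 0.09, adjusted p = 1.6e-11), beside its cytosolic relative Acss2 with no call. Hacd4, a dehydratase of the elongation cycle, rose 2.55-fold, from 5.22 ± 0.523 to 13.3 ± 1.37 CPM. Its relatives were looked up after these values were seen. Hacd2 fell from 30.5 ± 1.52 to 25.1 ± 1.52 CPM (adjusted p = 0.0043). Hacd1 and the more abundant Hacd3, at 135 and 133 CPM, had no call. Hsd17b12, a reductase of the elongation cycle, fell from 340 ± 1.1 to 244 ± 5.22 CPM, and Acsl5, an acyl-CoA synthetase, from 166 ± 2.68 to 128 ± 2.28 CPM. Tecr, another reductase of that cycle and also looked up afterwards, rose from 184 ± 7.18 to 216 ± 18.4 CPM (adjusted p = 0.0054).

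Of 21 tested triglyceride and lipid droplet genes 6 rose (28.6%) and 10 fell (47.6%), with a median log2 fold change of -0.17. Plin2, a protein coat of lipid droplets, fell from 1181, 1152 and 1256 CPM to 759, 784 and 785 CPM (log2 change -0.62, SE 0.04, adjusted p = 1.6e-09), and Cidea, a droplet fusion factor, from 9.81 ± 1.58 to 4.21 ± 0.574 CPM. Mgll, the monoglyceride lipase, rose 2.19-fold and Xdh, which also serves in milk fat secretion, 1.27-fold. Of 24 tested genes of fatty acid uptake and oxidation 3 rose (12.5%) and 9 fell (37.5%), with a median of -0.03. The number that rose was 5 with upper quartile scaling or without activated replicate 1, and 6 with no filter beyond 1 count or with the replicate block. Cpt1a, which admits fatty acids to mitochondria, fell from 228 ± 3.64 to 188 ± 0.628 CPM, and Fabp5, a fatty acid carrier, from 238 ± 15.8 to 180 ± 6.97 CPM. Lpl, lipoprotein lipase, and Acadm, a dehydrogenase of the oxidation cycle, both rose 1.2-fold.

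**Figure D5:**
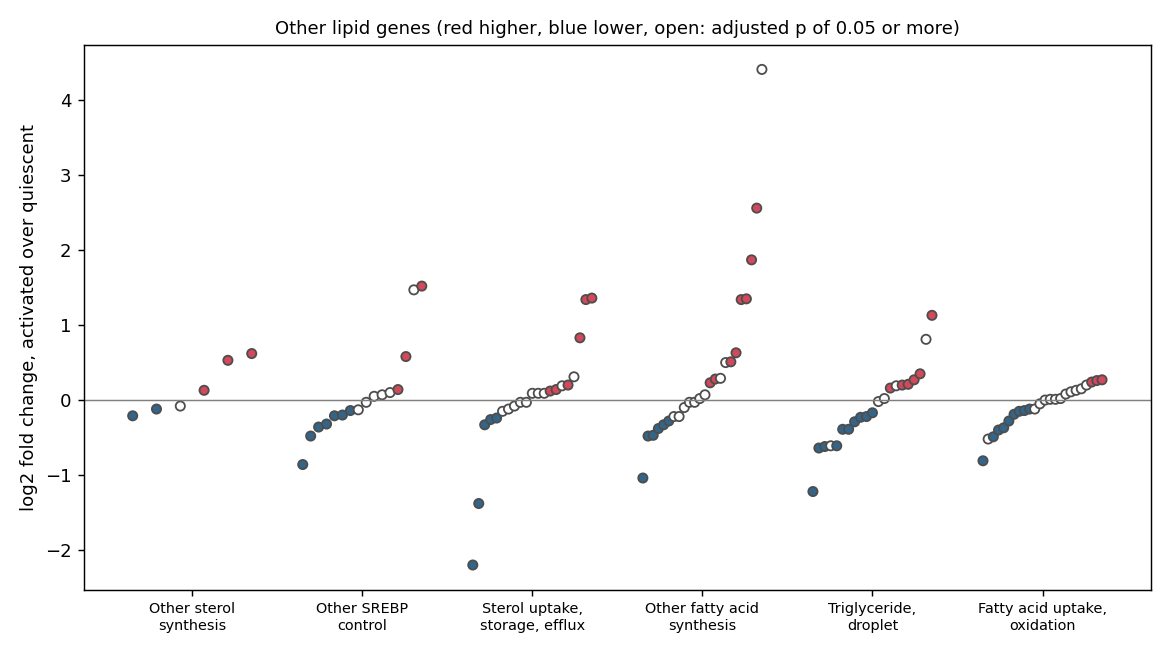
Log2 fold change of activated over quiescent for each tested gene of 6 lists of other lipid genes, one point per gene, sorted within a list. Red points rose, blue points fell and open points did not pass an adjusted p of 0.05. Each list has points on both sides of 0, and the open point at 4.41 is Slc25a1, with unstable counts.

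The marker counts are to be read beside the 24.1% of all genes tested that rose and the 23.4% that fell. Of 7 epithelial markers 2 rose and 2 fell (28.6% each), and they summed to 7349 to 7640 CPM in quiescent and 6814 to 7011 CPM in activated CSCs. Of 8 adipocyte markers 6, among them Adipoq, Plin1 and Lep, were under 1 CPM in every library. All 8 summed to 4.84 to 5.84 CPM in quiescent and 4.48 to 6.57 CPM in activated CSCs. Of these markers Pparg rose from 1.7 to 2.96 CPM (adjusted p = 0.021), and Fabp4, at 3.28 and 2.91 CPM, had no call. The states overlapped for Pparg, on 27 to 74 counts per library. Its activated library 1, at 1.79 CPM, lay within the quiescent range of 1.52 to 1.89 CPM. Of 8 fibroblast markers 7 rose (87.5%) and 0 fell, and their sum went from 806 to 834 CPM up to 1421 to 1573 CPM. Of 9 macrophage markers 6 rose (66.7%) and 1 fell (11.1%), with a sum of 771 to 824 CPM and then 1143 to 1158 CPM. Cd14, at 441 and 702 CPM, weighed most in that sum. Ptprc (adjusted p = 0.065) and Adgre1, at 24.4 and 25 CPM, had no call, and the marker that fell was Cd68. The part of any of these cell types in the changes of the lipid genes was not tested. Endothelial markers summed to 2.71 to 4 CPM over all libraries.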

How the data were processed

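Total RNA of 6 libraries, 3 of quiescent and 3 of activated CSCs, was extracted with Trizol and prepared with a NEBNext Ultra kit, per the labels' protocols. The authors' table holds unnormalised counts for each gene, whole numbers with totals that differ between libraries. The submitters' processing notes list featureCounts 1.5.0-p3, HISAT2 2.0.5 and StringTie 1.3.3b but give no role or order. Coordinates match GRCm38. No source used here states whether counting used strand, so overlapping or antisense genes and near-identical copies may share reads. The table's 187 loci without a gene name held 0.144 to 0.239% of a library's counts and were kept.

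The members and gene lists were chosen with earlier results of these data known. The quasi-likelihood test was run on the counts in R 4.3.3 with edgeR 4.0.16, after filterByExpr and TMM scaling and with robust dispersions. CPM use TMM-scaled totals, and length-scaled levels are TPM computed from the counts and the gene length in the authors' table. All members are named, and of each other list the 2 genes with the smallest adjusted p in each direction among those called. Results for 2 of these are not reported here. Agpat6 and Hsd17b8 were matched by older symbols to Gpat4 and H2-Ke6. Intervals of folds are 95% intervals of the fit. Alternatives were other scalings, DESeq2 1.42.0, voom of limma 3.58.1, no filter, the replicate block, leaving out each library and leaving out 196 genes whose CPM differed over 3-fold within a state, with a floor of 1 CPM. No member was among these. Shared words come from GENCODE M21 transcripts.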

Additional observations from a re-analysis of the deposited data

How the results depend on the processing

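Over 13 other settings the numbers of members called stayed close to those of the reported fit. The replicate block gave 13 sterol genes higher and 2 lower, 8 and 2 of the fatty acid branch and 4 and 2 regulators, all as reported, and 7042 genes over the whole table against 7236. The numbers in the labels were not taken to pair libraries, since same-numbered libraries deviated with correlations of 0.0279, -0.039 and 0.047. DESeq2 called 6298 genes and 12 sterol genes higher. Leaving out each library gave 6387 to 7359 genes, 12 to 13 sterol genes higher, 7 to 8 fatty acid genes higher and 3 to 4 regulators higher, with 2 lower in each group throughout. Of the 468 member values under these settings 456 kept their direction and their side of the threshold and 8 lost the call, namely those of Sc5d, Mlxipl and Acaca given with their results. The other 4 turned in sign, all in genes that had no call. With each library left out in turn the log2 fold change ran from -0.06 to 0.00 for Sqle (highest without quiescent replicate 2), from -0.13 to 0.04 for Tm7sf2 and from -0.08 to 0.00 for Hsd17b7 (both highest without activated replicate 1), and from -0.01 to 0.20 for Acss2 (lowest without activated replicate 2). Depth limits Mlxipl most, on 25 to 64 counts per library.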

Other observations

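Some further genes of the lists around these pathways are given here, chosen after their values were seen. Of these, Olah, Acacb and Elovl4 had low levels with large differences. Olah, the thioesterase that ends medium-chain fatty acids for milk fat, was counted 5, 5 and 3 times in the quiescent libraries and 28, 29 and 23 times in the activated ones (log2 change 2.56, SE 0.38). It passed the filter on low counts only through the activated libraries, where it was high, so no p-value is given for it. Acacb, the carboxylase isoform of the mitochondrial surface, rose from 1.49 ± 0.365 to 3.76 ± 0.131 CPM (adjusted p = 5.7e-05). Elovl4, an elongase of very long chains, fell from 4.96 ± 0.617 to 2.43 ± 0.455 CPM (adjusted p = 2.1e-04). The acyl-CoA synthetase genes divided, with Acsl3 rising from 39.1 ± 2.3 to 60.7 ± 5.06 CPM and Acsl1 from 36.1 ± 0.558 to 51.4 ± 2.11 CPM, while Acsl4 fell from 1090 ± 41.1 to 870 ± 13.4 CPM.

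Counts of 3 genes of these lists swung within a state. Slc25a1, the mitochondrial citrate carrier that feeds Acly, was counted 14, 19 and 20 times in the quiescent libraries and 449, 652 and 20 times in the activated ones (adjusted p = 0.078). Nfya, an NF-Y subunit gene, had 95, 68 and 88 and then 260, 346 and 92. Acadvl, a dehydrogenase of fatty acid oxidation, had 1872, 44 and 2189 and then 697, 1588 and 618.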
